A study of Canis lupus familiaris with 10 samples.

Results

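The miR-130, miR-301 and miR-454 family was followed across small RNA libraries from canine lymph nodes with diffuse large B cell lymphoma (DLBCL), an aggressive tumor of mature B cells, and from healthy lymph nodes. The members were the miRNAs listed under the names cfa-miR-130a, cfa-miR-130b, cfa-miR-301a, cfa-miR-301b and cfa-miR-454 (written without the species prefix from here on), chosen by name and not by their values. They were 5 of the 320 miRNAs in the deposited table, and all 5 were among the 247 that passed the filter on low counts. Small RNA had been sequenced from fresh frozen nodes of 6 dogs with DLBCL (DLBCL1 to DLBCL6) and 4 healthy dogs (Healthy2 to Healthy5), with 1 library per dog. The DLBCL dogs were client-owned patients of both sexes and several breeds, and their nodes were biopsied under anesthesia. The healthy dogs were young purpose-bred female hound crosses with histologically normal nodes, and these dogs were euthanized in the course of teaching. Diagnosis, age, sex, breed and origin therefore cannot be told apart here. The nodes were bulk tissue, so fewer cells of a type and less RNA per cell cannot be told apart either.

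Members of a miRNA family share the seed, the short stretch near the 5′ end that pairs with target mRNAs, so they can act on overlapping sets of targets. The family is made from several places in the genome. miR-301b and miR-130b lie side by side, and miR-454 and miR-301a lie within the gene SKA2, which encodes a protein of the spindle and kinetochore complex. miR-130a comes from a locus of its own and is known from blood vessel endothelium and early blood progenitors. In the annotation of the dog assembly UU_Cfam_GSD_1.0, 0 genes lay between MIR301B and MIR130B, 1 gene (LOC100856231) lay between MIR454 and MIR301A, both of which overlapped SKA2, and MIR130A overlapped no other gene.

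The libraries held 10686441 to 25784861 miRNA reads in DLBCL and 30432969 to 34709421 in healthy nodes. miR-148a took 17.8% to 39.0% of them in DLBCL and 51.5% to 73.6% in healthy nodes, which leaves unequal room for every other miRNA. Levels are therefore given as counts per 1000000 (CPM) on library sizes adjusted by TMM, a scaling that takes most miRNAs to be equal between libraries, and the fold change on total miRNA reads, the scale of the TPM values, stands beside that of each member. The median log2 fold change over all 247 miRNAs was 0.13 with TMM and 0.82 with total reads. The libraries also fell into 2 sets by Q30, the share of bases read with high quality. DLBCL1, DLBCL2, DLBCL3 and DLBCL5 had the higher Q30, and DLBCL4, DLBCL6 and the 4 healthy libraries the lower. The fold change within the lower Q30 set, which compares 2 DLBCL with 4 healthy libraries, stands beside each member. Of the miRNA lists used to check the tissue, the 6 miRNAs of mature lymphocytes were all present. Their summed level was 15558 to 28087 CPM in DLBCL and 31014 to 45696 CPM in healthy nodes. Of the 6, only miR-150 was called (log2 fold change -2.97), beside 14 of all 247 miRNAs tested. The other members went in both directions, at -0.77 for miR-342, -0.55 for miR-26a, -0.35 for miR-29a, 0.64 for miR-29b and 1.92 for miR-29c. The unadjusted edgeR p of miR-29c was 0.0148 and its adjusted p 0.109. Of the 4 red blood cell miRNAs, 3 (miR-451, miR-486 and miR-486-3p) were called higher in DLBCL, beside 9 of all 247 miRNAs tested. The summed level of the 4 was 5740 to 48886 CPM against 873 to 1278 CPM. The epithelium and pancreas list (6 miRNAs tested) summed to 46.0 to 677 CPM in DLBCL and 933 to 1961 CPM in healthy nodes. Its members went in both directions, and edgeR called 0 of the 6. The log2 fold changes were -2.57 for miR-216a, -2.84 for miR-216b, -3.16 for miR-217 and -0.18 for miR-141. They were 1.07 for miR-200c and 2.04 for miR-375. For the skeletal muscle list (3 tested) the sums were 9.42 to 360 CPM and 16.3 to 76.5 CPM. For the myeloid list of 1 miRNA the levels were 3.95 to 88.3 CPM and 16.9 to 38.6 CPM. The part of red cells and of these other cell types in the results below was not tested.

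All 5 members were of low to middling abundance. By mean CPM among the 247 miRNAs, miR-454 ranked 145 in DLBCL, miR-130b 154 in DLBCL and 168 in healthy nodes, miR-130a 185 and 172, miR-301b 197 and 211, and miR-301a 234 and 237. In healthy nodes the mean levels ran from miR-454 through miR-130b, miR-130a and miR-301b to miR-301a, and the order was the same in DLBCL. Neighbors in this order overlapped in range in both groups, except that in healthy nodes every miR-130a value (4.20 CPM or more) lay above every miR-301b value (4.02 CPM or less). In single libraries the order also changed. miR-130b exceeded miR-454 in DLBCL5, DLBCL6 and Healthy2, miR-130a exceeded miR-130b in Healthy5, and miR-301b exceeded miR-130a in DLBCL1 and DLBCL3. Levels of different miRNAs also depend on how well each is ligated during library preparation, so this order is one of read counts. miR-130a and miR-130b, and miR-301a and miR-301b, have closely related sequences, and how reads that match both were counted was not given in the sources used here.

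No member differed between DLBCL and healthy nodes past the threshold, an adjusted p-value under 0.05 with a fold change of more than 2. edgeR called 0 of the 5 members, and 5.67% of all miRNAs tested (14 of 247). At an unadjusted p-value under 0.05, edgeR counted 0 of 5 members beside 26.7% of all (66 of 247). For 0 of 5 members were the 2 groups of libraries apart with no overlap in CPM, beside 13% of all miRNAs tested (32 of 247). The exact permutation test over the 210 ways to split the libraries gave an adjusted p-value under 0.05 for 0 members and for 0% of all miRNAs. The smallest adjusted p-value over all miRNAs was 0.107, with 58 of 247 at an unadjusted p-value under 0.05. The smallest p that 210 splits allow, 0.00476, cannot pass adjustment over 247 miRNAs unless many reach it together. The 0 of the permutation test is therefore no result about the members. The log2 fold change was above 0 for 4 members and below 0 for miR-130a, with a median of 0.34, and 55.5% of all miRNAs were above 0.

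**Figure D1:**
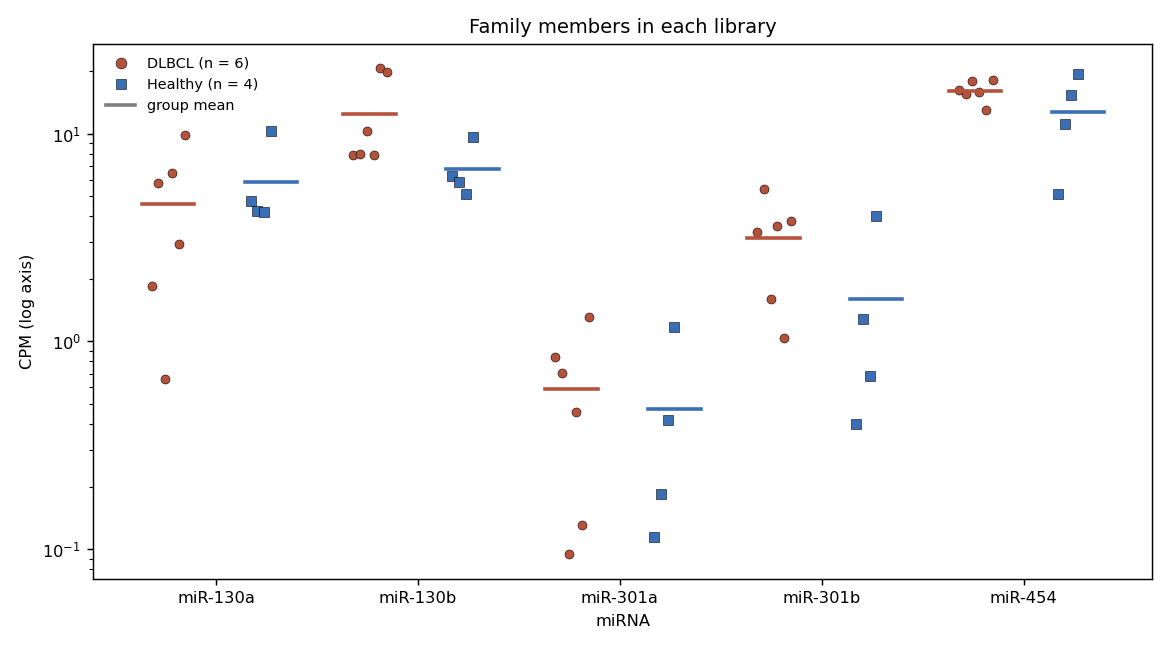
Level of each family member in each library, in CPM on a log axis. Circles are the 6 DLBCL libraries, squares the 4 healthy libraries, and bars the group means. The groups overlap for every member, and the 6 DLBCL points of miR-454 lie between 13.0 and 18.1 CPM.

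miR-130b, the member that pairs with miR-301b in 1 cluster, was the member with the most DLBCL libraries above all healthy ones. It lay at 7.87 CPM in DLBCL1 and DLBCL4, the lowest, with a median of 9.16 CPM and a highest value of 20.6 CPM in DLBCL5. The healthy libraries held 6.26, 5.87, 5.15 and 9.64 CPM in Healthy2, Healthy3, Healthy4 and Healthy5. Thus 3 DLBCL libraries (DLBCL3, DLBCL5 and DLBCL6) were above every healthy library, and the other 3 lay below Healthy5 and above the remaining healthy libraries. The means were 12.4 ± 6.12 CPM (SD, n = 6) and 6.73 ± 2.0 CPM (SD, n = 4). The log2 fold change was 0.88 (SE 0.50, 95% interval -0.20 to 1.96, edgeR adjusted p = 0.254), with an exact two-sided permutation p of 0.0667 before adjustment and 0.226 after. It was 1.03 within the lower Q30 set, and 0.68 without DLBCL5. With total reads it was 1.53 (edgeR unadjusted p = 0.0400, adjusted p = 0.132), beside the median of 0.82 over all miRNAs on that scale.

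miR-301b, its neighbor in the genome, had the largest log2 fold change of the family, at 0.96 (SE 0.72, 95% interval -0.60 to 2.53, edgeR adjusted p = 0.382, exact permutation p = 0.105). Its lowest DLBCL value was 1.04 CPM in DLBCL5, its median 3.47 CPM and its highest 5.39 CPM in DLBCL2. The healthy libraries held 0.398, 1.28, 0.683 and 4.02 CPM in Healthy2, Healthy3, Healthy4 and Healthy5. Healthy5 alone among the healthy libraries lay in the upper range of DLBCL, and only DLBCL2 exceeded it. The means were 3.13 ± 1.58 CPM (SD, n = 6) and 1.60 ± 1.66 CPM (SD, n = 4). Without Healthy5 the log2 fold change was 1.94, with an unadjusted edgeR p of 0.0200 and an adjusted p of 0.137, and no other library moved it as far. Within the lower Q30 set, which includes Healthy5, it was 1.19, and with total reads 1.55 (edgeR adjusted p = 0.275). limma-voom with sample quality weights gave 1.62, with an unadjusted p of 0.0125 and an adjusted p of 0.0571. The counts behind it were small, from 7 reads in Healthy2 to 154 in DLBCL6.

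miR-454, which shares SKA2 with miR-301a, was the most abundant member in both groups. Its DLBCL libraries ran from 13.0 CPM in DLBCL5 over a median of 16 CPM to 18.1 CPM in DLBCL6. The healthy libraries held 5.12, 11.2, 15.4 and 19.3 CPM in Healthy2, Healthy3, Healthy4 and Healthy5. The 6 DLBCL values stood close together inside the wider range of the healthy ones. The means were 16.1 ± 1.87 CPM (SD, n = 6) and 12.8 ± 6.08 CPM (SD, n = 4), and the log2 fold change was 0.34 (SE 0.45, 95% interval -0.64 to 1.31, edgeR adjusted p = 0.677, exact permutation p = 0.176). It was 0.40 within the lower Q30 set and 0.98 with total reads (edgeR adjusted p = 0.327). On the TMM scale the interval does not reach a change of more than 2.49-fold upward or below 0.642 of the healthy level.

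The SD of miR-454 over the 6 DLBCL libraries was 0.17 on the log2 CPM scale, the 3rd lowest of the 247 miRNAs, whose median SD was 1.07. In healthy nodes its SD was 0.83, against a median of 0.54 over all miRNAs. The rank in DLBCL was 4 with the size factors of DESeq2 (SD 0.29) and 50 with total reads (SD 0.70), where its TPM ran from 9.10 in DLBCL5 to 36.8 in DLBCL6. The median SD over all miRNAs with total reads was 1.23, so miR-454 was less even on that scale than with TMM but still below the median.

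miR-301a was the rarest member, with 2 to 53 reads per library and at least 10 reads in 5 of 10 libraries. Its DLBCL libraries ran from 0.0941 CPM in DLBCL3 over a median of 0.581 CPM to 1.31 CPM in DLBCL6. The healthy libraries held 0.114, 0.183, 0.420 and 1.17 CPM in Healthy2, Healthy3, Healthy4 and Healthy5. The values spread 13.9-fold in DLBCL and 10.3-fold in healthy nodes, and the groups overlapped over nearly their whole range. The means were 0.589 ± 0.463 CPM (SD, n = 6) and 0.472 ± 0.485 CPM (SD, n = 4). The log2 fold change was 0.30 (SE 0.85, 95% interval -1.53 to 2.14, edgeR adjusted p = 0.841, exact permutation p = 0.710). It was 1.05 with total reads (edgeR adjusted p = 0.537). It was 0.86 within the lower Q30 set, 1.20 without Healthy5, -0.08 without DLBCL6 and -0.06 without Healthy2, so its direction rests on single libraries. A count of 2 reads, as in DLBCL3, DLBCL5 and Healthy2, has a 95% Poisson interval of 0.242 to 7.22 reads for counting error alone. At this depth and spread, the interval of the fold change runs from 0.346 to 4.40 times the healthy level.

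miR-130a, the member with a locus of its own, was the only one with a negative log2 fold change, at -0.35 (SE 0.68, 95% interval -1.82 to 1.11, edgeR adjusted p = 0.769, exact permutation p = 0.395). Its lowest DLBCL value was 0.659 CPM in DLBCL3, its median 4.36 CPM and its highest 9.81 CPM in DLBCL6. The healthy libraries held 4.72, 4.26, 4.20 and 10.3 CPM in Healthy2, Healthy3, Healthy4 and Healthy5. DLBCL1, DLBCL3 and DLBCL5 lay below every healthy library, and DLBCL2, DLBCL4 and DLBCL6 lay between Healthy5 and the other healthy libraries. The means were 4.59 ± 3.41 CPM (SD, n = 6) and 5.87 ± 2.97 CPM (SD, n = 4). The 3 low libraries all belonged to the higher Q30 set, and within the lower Q30 set the log2 fold change was positive, at 0.46. It was also positive with total reads (0.54), so no direction is given for miR-130a. The spread within DLBCL was 14.9-fold, against 2.46-fold in healthy nodes.

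**Figure D2:**
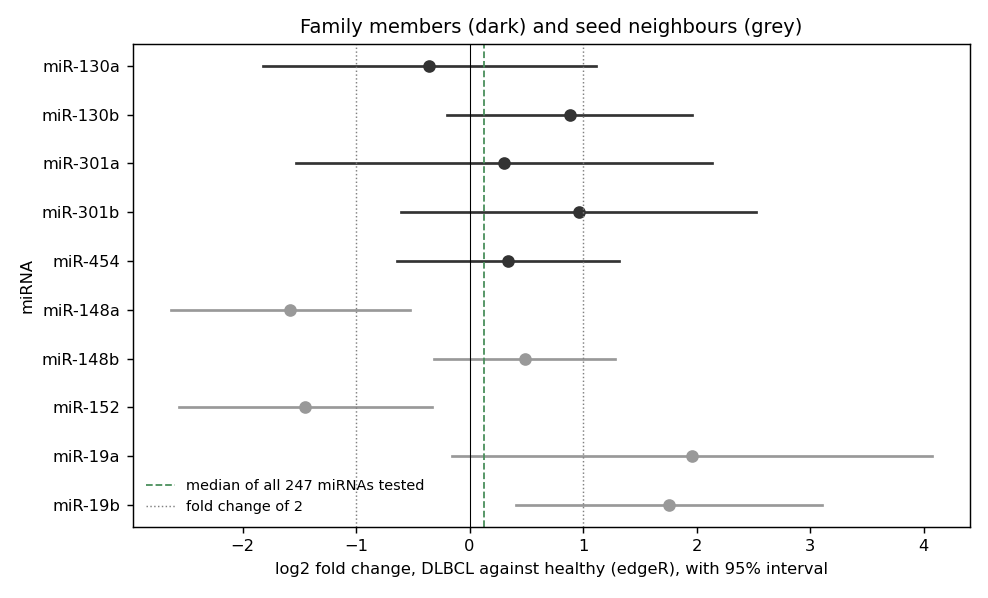
Log2 fold change (DLBCL against healthy, edgeR on TMM-scaled counts) with its 95% interval for the 5 family members (dark) and 5 miRNAs with a related seed (grey). The dashed line is the median of all 247 miRNAs, 0.13, and the dotted lines mark a fold change of 2. All 5 dark intervals cross 0.

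Because both members of a ratio come from the same library, ratios between members do not depend on the scaling. For 4 pairs this comparison was made, with exact two-sided permutation tests over 210 splits and adjustment over the 4. The ratio of miR-130b to miR-130a ran from 1.21 in DLBCL4 over a median of 3.14 to 15.7 in DLBCL3. In healthy nodes it was 1.33, 1.38, 1.23 and 0.935 in Healthy2, Healthy3, Healthy4 and Healthy5. The healthy ratios were nearly equal, while those of DLBCL1, DLBCL3, DLBCL5 and DLBCL6 were above every healthy one. The difference of the mean log2 ratios was 1.49 (exact permutation p = 0.0667, adjusted p = 0.190), which did not pass, and it was 0.38 within the lower Q30 set. The largest ratios (DLBCL1, DLBCL3 and DLBCL5) were those of the libraries lowest in miR-130a.

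The ratio of miR-301b to miR-301a compares close relatives made from separate loci. It ran from 2.91 in DLBCL6 over a median of 7.76 to 17 in DLBCL3, and was 3.50, 7.0, 1.63 and 3.43 in the healthy libraries. miR-301b had more reads than miR-301a in each of the 10 libraries. The difference of the mean log2 ratios was 0.96 (exact permutation p = 0.0952, adjusted p = 0.190), with 0.55 within the lower Q30 set. In DLBCL3 the ratio rests on 34 and 2 reads, with a 95% counting interval of 4.36 to 146.

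Within the miR-301b and miR-130b cluster the ratio of the first to the second spanned 0.0505 to 0.676 in DLBCL and 0.0636 to 0.416 in healthy nodes. The difference of the mean log2 ratios was 0.51 (exact permutation p = 0.543, adjusted p = 0.724) and 0.80 within the lower Q30 set. For the SKA2 pair, the ratio of miR-454 to miR-301a spanned 13.8 to 191 in DLBCL and 16.5 to 60.8 in healthy nodes. Its difference was 0.15 (exact permutation p = 0.848, adjusted p = 0.848) and -0.61 within the lower Q30 set. In both loci the lowest and highest DLBCL ratios were more than 10-fold apart, the highest of the SKA2 pair resting on 2 reads of miR-301a in DLBCL3.

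**Figure D3:**
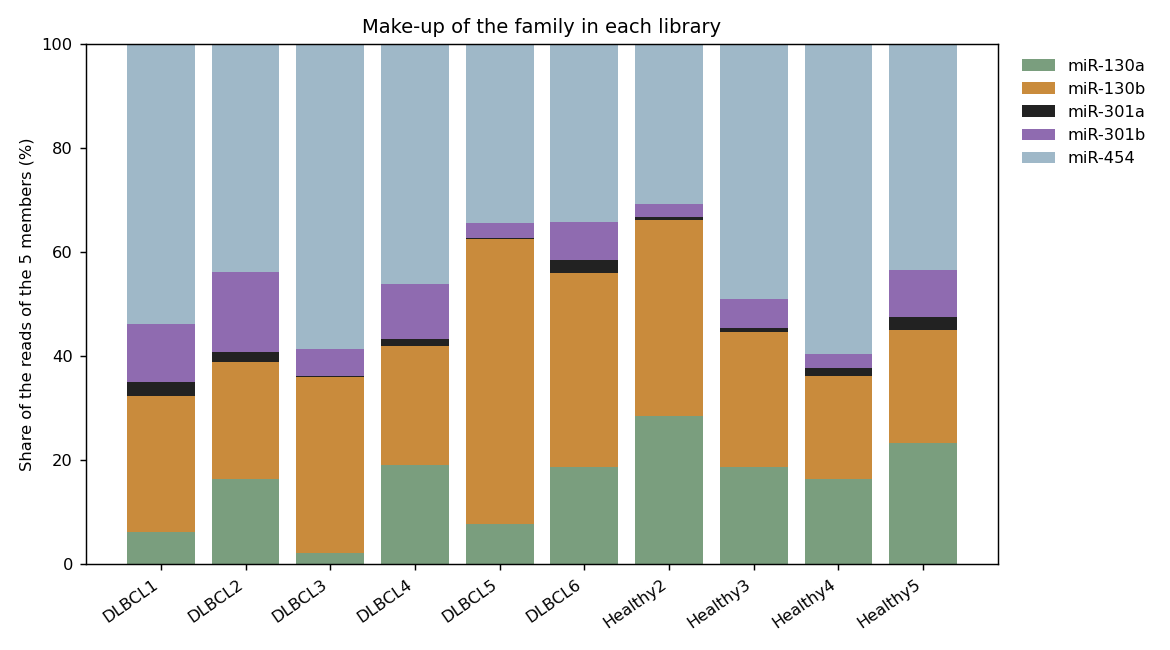
Share of each member in the reads of the 5 members, in percent, for each library. miR-454 and miR-130b together hold most reads in every library, and the miR-130a share is smallest in DLBCL3, at 2.15%.

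miR-454 and miR-130b held most of the reads of the 5 members in both groups. miR-454 made up 45.2 ± 9.91% of them in DLBCL (SD, n = 6) and 45.7 ± 12% in healthy nodes (SD, n = 4), and miR-130b 32.9 ± 12.2% and 26.3 ± 8.0%. miR-301b held 8.67 ± 4.50% and 4.93 ± 3.11%, and miR-301a 1.54 ± 1.06% and 1.44 ± 0.902%. The miR-130a share was 11.6 ± 7.20% in DLBCL and 21.6 ± 5.37% in healthy nodes, with a range of 2.15% to 18.9% against 16.2% to 28.4%. These shares are descriptions, and the difference in each was not tested beyond the ratios above. The largest single miR-130b share was 54.7%, in DLBCL5.

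The sum of the family depended on the scale. Per 1000000 miRNA reads it was 33.7, 49.8, 25.3, 59.8, 26.4 and 107.3 TPM in DLBCL1 to DLBCL6, and 8.41, 20.1, 16.2 and 49.3 TPM in Healthy2 to Healthy5. All 6 DLBCL libraries were above 3 of the 4 healthy ones, and Healthy5 lay within the DLBCL range. The group means were 50.4 ± 31.0 TPM (SD, n = 6) and 23.5 ± 17.9 TPM (SD, n = 4). When miR-148a was left out of the total, they were 70.4 ± 34.4 and 55.7 ± 31.3 per 1000000. On the TMM scale they were 36.8 ± 8.34 and 27.4 ± 12 CPM. The mean difference on the log2 scale was 1.20 in TPM and 0.35 per 1000000 reads without miR-148a. Within the lower Q30 set it was 2.06 in TPM. No test was made of the sum, since the members had been chosen as a family.

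**Figure D4:**
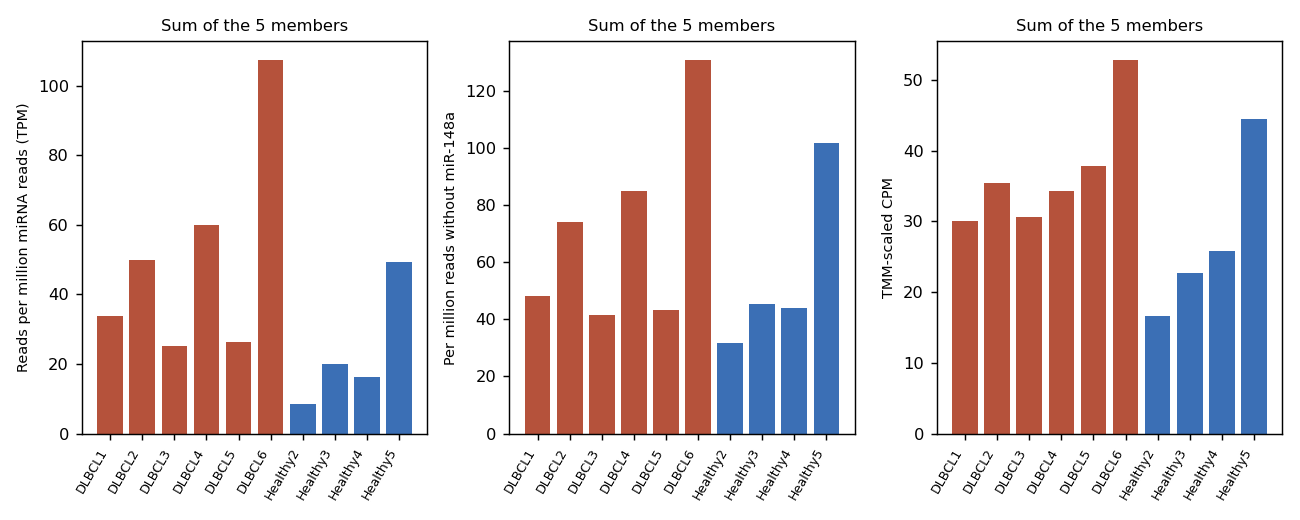
Sum of the 5 members in each library on 3 scales: per 1000000 miRNA reads (TPM), per 1000000 miRNA reads without miR-148a, and TMM-scaled CPM. Bars start at 0, with DLBCL libraries in red and healthy libraries in blue. DLBCL6 and Healthy5 are the highest of their groups on all 3 scales.

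The members varied together only in part. Likeness was measured as Pearson's r of log2 CPM over the 10 libraries after the mean of each group was removed, and it is a description, since all miRNAs of a library share its depth and scaling. The closest members were miR-301a and miR-301b, which come from separate loci, with r = 0.82. The SKA2 pair, miR-301a and miR-454, had r = 0.59, and miR-454 and miR-301b had r = 0.64. Because miR-301a had at least 10 reads in only 5 of 10 libraries, counting error enters its r values. The clustered pair miR-130b and miR-301b had r = -0.05, below the median of 0.04 over all other miRNAs for miR-130b. With total reads in place of TMM the same r was 0.63, so the lack of likeness within this cluster holds for the scaled values. miR-130a and miR-130b had r = 0.30.

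The miRNAs most like miR-130a included miRNAs known from vessels and connective tissue. The 3 most like it were miR-126, a miRNA of endothelium, with r = 0.97, miR-708 with r = 0.95 and miR-199, a miRNA of fibroblasts and other mesenchymal cells, with r = 0.95. miR-126 ran from 8.85 CPM in DLBCL3 to 186 CPM in DLBCL6, and was 134, 123, 94.3 and 399 CPM in Healthy2 to Healthy5. The same 3 DLBCL libraries that were low in miR-130a, namely DLBCL1, DLBCL3 and DLBCL5, were the lowest in miR-126, at 43.3, 8.85 and 31.9 CPM. Of the 11 stroma and vessel miRNAs tested, 6 had r over 0.8 with miR-130a, with a median of 0.81 and a range of -0.35 to 0.97, beside a median of 0.28 over all other miRNAs and 25 of 246 (10.2%) over 0.8. edgeR called 0 of these 11 between the groups, beside 14 of all 247 miRNAs tested. At an unadjusted p-value under 0.05 it counted 3 of the 11, beside 26.7% of all (66 of 247). Their summed level, which the most abundant of the 11 dominate, did not follow miR-130a. It was lowest in DLBCL3, at 27617 CPM, but highest in DLBCL5 (237106 CPM) and DLBCL1 (131795 CPM), both low in miR-130a. In DLBCL6, the DLBCL library highest in miR-130a, it was 51862 CPM. Of the sum in DLBCL5, miR-126 and miR-199 held only 31.9 and 992 CPM, so the sum mostly shows other members of the list. In healthy nodes the sum ran from 78049 CPM in Healthy5, the library highest in miR-130a, to 130971 CPM in Healthy2. The part of vessel and connective tissue content in the miR-130a values was not tested.

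The 3 miRNAs most like each of the other members were not those of miR-130a. miR-301b was nearest to miR-144, a red blood cell miRNA, with r = 0.93, followed by miR-138a (r = 0.89) and miR-190a (r = 0.87). The median r of miR-301b with the 4 red blood cell miRNAs was -0.32, and miR-144 was the only one of the 4 with r over 0.8. miR-301a was nearest to miR-32 (r = 0.91), miR-138a (r = 0.90) and miR-190a (r = 0.88). With the 6 miRNAs of the cluster of miR-17 to miR-92a, an oncogene of B cell lymphomas, the median r was 0.77 for miR-301a (range -0.60 to 0.84), 0.73 for miR-301b (range -0.45 to 0.83) and also 0.73 for miR-130a (range -0.94 to 0.81), beside 0.19, 0.14 and 0.28 over all other miRNAs. That cluster had a summed level of 5607 to 15104 CPM in DLBCL and 1906 to 2827 CPM in healthy nodes. edgeR called 0 of its 6 miRNAs, beside 14 of all 247 miRNAs tested. At an unadjusted p-value under 0.05 it counted 5 of the 6, beside 26.7% of all (66 of 247). miR-454 was nearest to miR-1842 (r = 0.81), miR-769 (r = 0.79) and miR-15b (r = 0.76). miR-130b was nearest to miR-1838 (r = 0.78), miR-101 (r = 0.70) and miR-203 (r = 0.70), and 0 of 246 miRNAs exceeded 0.8 with it.

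**Figure D5:**
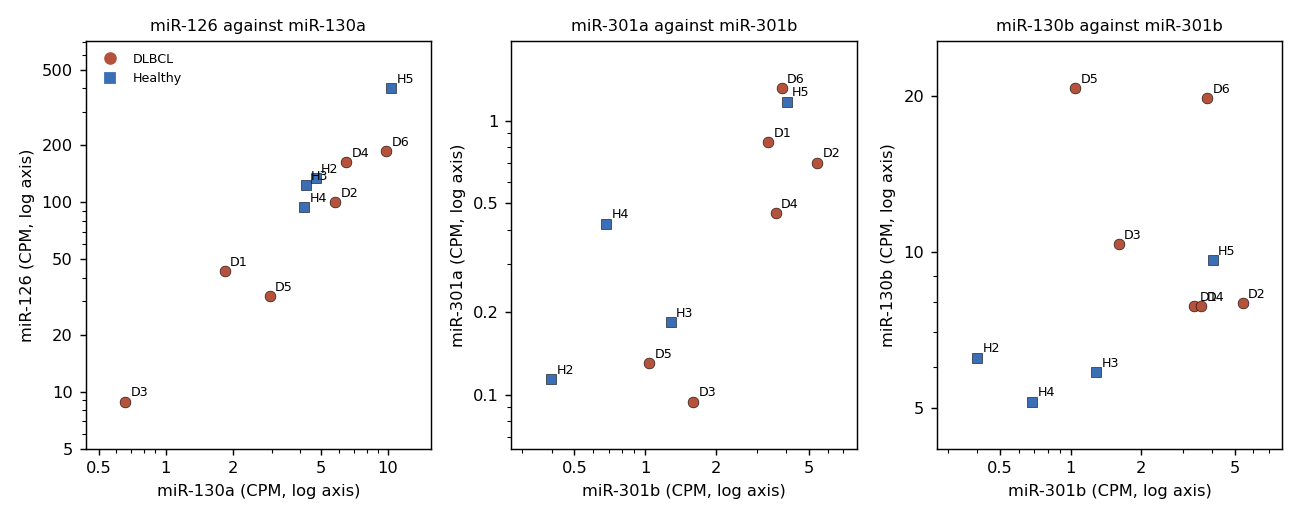
Levels of 3 pairs of miRNAs in each library, in CPM on log axes: miR-126 against miR-130a, miR-301a against miR-301b, and miR-130b against miR-301b. D marks DLBCL and H healthy libraries. The first pair lies along a line over both groups, while the last, which is made from 1 cluster, shows no line.

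The miR-148, miR-152 and miR-19 miRNAs have seeds that overlap that of the family when shifted by 1 base, so they were set beside it. edgeR called 0 of these 5, beside 14 of all 247 miRNAs tested. At an unadjusted p-value under 0.05 it counted 3 of the 5, beside 26.7% of all (66 of 247). miR-148a had a log2 fold change of -1.58 (SE 0.49, edgeR adjusted p = 0.0806), and miR-152, its relative, -1.45 (SE 0.51, adjusted p = 0.109). miR-148b, which shares the seed of both, had 0.49 (SE 0.37, edgeR adjusted p = 0.382). miR-19a and miR-19b, of the cluster of miR-17 to miR-92a, had 1.96 (SE 0.98, edgeR adjusted p = 0.211) and 1.76 (SE 0.62, adjusted p = 0.109). Within the lower Q30 set the values were -2.81 for miR-148a, 2.95 for miR-19a and 2.32 for miR-19b, all 3 of which edgeR called there. The values of 0.11 for miR-148b and -0.77 for miR-152 were not called. In that set edgeR called 46 of all 259 miRNAs tested, against 14 of 247 over the 10 libraries. The median over these 5 was 0.49, beside 0.34 for the family. miR-148a was the most abundant miRNA in both groups, so the family is rare beside a miRNA with a related seed.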

How the data were processed

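Per the paper's methods and the processing labels, the authors cleaned the reads, mapped them with Bowtie 0.12.9 (genome build CanFam3.1), discarded those of repeats or of rRNA, tRNA, snRNA and snoRNA, and counted what remained with miRDeep2 on known miRNAs of miRBase. The authors deposited raw read counts of 320 miRNAs in 10 libraries, 1 per dog, and TPM values, which are the count divided by the library's miRNA total on a scale of 1000000. The TPM values differed from the counts scaled in this way by at most 4.55e-05.

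Groups were taken from the labels. Fold changes were computed from the counts with edgeR 4.0.16 in R 4.3.3 (TMM, default filter on low counts by group, quasi-likelihood test, Benjamini-Hochberg adjustment over the 247 miRNAs left). Library sizes for CPM were adjusted by TMM, and log2 CPM was computed after a prior count of 2 was added. A miRNA was called when its fold change exceeded 2 in either direction and its adjusted p-value was below 0.05. Exact two-sided permutation tests of mean log2 CPM or log2 ratios (0.5 added to each count) used all 210 splits of 6 against 4, so that the smallest p was 0.00476. Permutation tests and plots used Python 3.11.15, scipy 1.17.1, numpy 2.4.6, pandas 2.3.3 and matplotlib 3.10.9. The fits were tested on simulated counts.

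Depth leaves a wide counting error for miR-301a and, in the libraries with few reads of it, miR-301b, and intervals for reads cover counting error alone. No 2 libraries of a group agreed within sampling noise (smallest chi-squared per degree of freedom 2115). Alternatives were no filter or at least 10 reads in every library, other scalings, DESeq2 1.42.0, limma 3.58.1, the Q30 group, which was read from the study's sequencing statistics, a replicate block, and each library left out. Added after seeing the data were the 8 libraries of the block without it, the fit without DLBCL6 and Healthy5, the total without miR-148a, the spread under other scalings and the likeness to cell type lists. The members, lists and tests were chosen with earlier results of these data known. Named were the members, the related seeds, the 3 most alike miRNAs of each member, and list miRNAs that were called. miR-150, miR-451, miR-486 and miR-486-3p are named by the last of these. The other mature lymphocyte miRNAs, and those tested of the epithelium and pancreas list, were named after their values were seen, so that both lists are shown. Of the 320 names, 283 matched a gene of the annotation, which was used for neighbors only. Mature sequences are not printed.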

Additional observations from a re-analysis of the deposited data

Results flagged for a closer look

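In 42 groups of 4 or 6 values (the members, the related seeds, and the ratios, shares and sums of the members), 4 held a library that stood apart from the others by Dixon's criterion. For independent, normally distributed values the criterion flags about 1 group in 20. Levels were taken here without a log, and members, ratios, shares and sums overlap, so that rate need not hold. miR-130a was 10.3 CPM in Healthy5, where the other 3 healthy libraries held 4.20 to 4.72 CPM. The sum of the family was 52.8 CPM in DLBCL6, where the other DLBCL libraries held 30.1 to 37.8 CPM. Of the related seeds, miR-148b was 2774 CPM in DLBCL3 and miR-19a was 86.4 CPM in DLBCL4, both the highest of their group. Without DLBCL6 and Healthy5 together, the log2 fold changes of the members were -0.33 for miR-130a, 0.85 for miR-130b, 0.96 for miR-301a, 1.98 for miR-301b and 0.65 for miR-454, and edgeR called none of the 5.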

How the results depend on the processing

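edgeR, DESeq2 and limma called 0 of the 5 members under each of the 23 alternatives, and miR-130b and miR-454 kept a positive fold change under all 23, miR-301b under the 22 that kept it. A filter of 10 reads in every library left no value for miR-301a and miR-301b, and with the replicate block none for miR-301a. The number of miRNAs called, 14 as reported, was 8 with DESeq2 size factors or with total reads without miR-148a, 23 with total reads (22 higher and 1 lower, against 9 and 5), 38 with DESeq2, 46 with limma-voom, 7 with the Q30 group as a covariate, 46 in the lower Q30 set, and 3 without DLBCL6 and Healthy5. Leaving out single libraries gave 1 (without Healthy4) to 23 (without DLBCL4). Of the related seeds, DESeq2 called 2, limma-voom 4, the filter of 10 reads in each library 1, the Q30 covariate 1, the lower Q30 set 3, and the fits without single libraries 0 to 1.

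The miR-130a log2 fold change turned positive with total reads (0.54), limma trend on log2 TPM with 1 added (0.13), the Q30 covariate (0.47) and in the lower Q30 set (0.46), and was -0.70 to -0.09 without single libraries. That of miR-301a ran from -0.08 to 1.20 and turned negative without DLBCL6 (-0.078) or Healthy2 (-0.06). Without single libraries miR-130b ran from 0.68 to 1.03, miR-301b from 0.66 to 1.94 and miR-454 from 0.10 to 0.59. Farthest outside these ranges were 1.53 for miR-130b and 0.98 for miR-454 with total reads, and 1.31 and 1.07 with limma trend on log2 TPM. The ratio of miR-454 to miR-301a turned to -0.61 in the lower Q30 set and ran from -0.27 to 0.43 without single libraries. The log2 difference of the family sum in TPM ran from 0.80 to 1.65 without single libraries and was 2.06 in the lower Q30 set. Likeness of miR-130b and miR-301b was 0.63 with total reads and -0.47 to 0.33 without single libraries, that of miR-301a and miR-454 was 0.84 with total reads, and that of miR-130a and miR-126 was 0.87 by Spearman, 0.98 with total reads and 0.93 to 0.98 without single libraries. The cause of these shifts was not tested.

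The replicate numbers are names of dogs and pair nothing: deviations of same-numbered libraries correlated at 0.26, -0.01, -0.30 and -0.33. With the number as a block on the 8 libraries that have one in both groups, 1 miRNA was called, as on the same 8 libraries without the block (1), and the block gave log2 fold changes of -0.88 for miR-130a, 0.72 for miR-130b, 1.23 for miR-301b and 0.45 for miR-454. Depth limits miR-301a most, and 6 against 4 dogs limit all members.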
